A study of Homo sapiens with 17 samples.

Results

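The long autosomal gains of H3K27me3 in replicative senescence are described here, that is, the deposited H3K27me3 mesas on chromosomes 1 to 22, chosen by a measured value, a length of at least 500 kb. There were 237 of them among 1440 H3K27me3 mesas in all and 1403 on the autosomes. They made up 79.6% of the base pairs of autosomal mesas, 382 Mb, against 98.1 Mb in the 1166 shorter autosomal mesas. The study calls a broad region that gains a mark in senescence a mesa, and a region that loses it a canyon. Because length chose the members, and length comes from the H3K27me3 comparison itself, lengths and canyons are given as description.

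H3K27me3 is trimethylation of lysine 27 of histone H3. It is written by Polycomb repressive complex 2, through the enzymes EZH2 or EZH1, is bound by Polycomb repressive complex 1, and is found over silent developmental genes and over broad stretches of inactive chromatin. H3K4me3, trimethylation of lysine 4, is a mark of active and poised promoters, where it usually forms sharp peaks and not broad domains. Lamina-associated domains (LADs) are stretches of mostly silent, gene-poor and late-replicating chromatin that touch the nuclear lamina, a mesh of lamin filaments under the nuclear envelope, and lamin B1, one of these filaments, becomes scarce when fibroblasts senesce.

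The regions come from chromatin immunoprecipitation and sequencing in IMR90, a human lung fibroblast line of limited lifespan, grown at 3% oxygen. For H3K27me3 there were 2 libraries from senescent cells, passaged to population doubling 87 until growth stopped and kept for 2 more weeks, and 4 libraries from proliferating cells at doubling 24. For H3K4me3 there was 1 library each from senescent cells at doubling 87, proliferating cells at doubling 24, Ras-induced cells at doubling 15 and control cells at doubling 15. The Ras-induced cells carried ER:Ras, a retrovirally introduced oncogene construct switched on with 100 nM 4-hydroxytamoxifen; what the controls carried or received is not stated in the labels. H3 libraries numbered 6, and the LADs rest on 1 lamin B1 library from proliferating cells at doubling 24, so no lamina map of senescent or Ras-expressing cells was used. H3K4me3 mesas called from the passaged cells are named replicative here, and the second H3K4me3 list, from the oncogene experiment, is named Ras-induced. The lists give the chromosome, start and end of each region on build hg18 and no measured value, so depth is unknown, no value belongs to a replicate and no test over samples can be made: every comparison below sets shares of regions or of base pairs side by side, untested. The header of the replicative H3K4me3 list states its direction (more H3K4me3), and for the other lists the direction is taken from their names.

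The 237 mesas had a median length of 1.10 Mb, with quartiles of 692 kb and 2.00 Mb. The range ran from 503 kb to 8.63 Mb. The longest 24 held 30.0% of all their base pairs, so a small number of very long regions weighs heavily in every share of base pairs. Just above the minimum lay regions on chromosome 12 (106549501 to 107052499, 503 kb), chromosome 5 (8013001 to 8516699, 504 kb) and chromosome 8 (61838201 to 62343599, 505 kb). Just below it lay regions on chromosome 14 (21055301 to 21554799, 499.5 kb), chromosome 1 (41729301 to 42224599, 495 kb) and chromosome 5 (154500001 to 154988199, 488 kb). The minimum therefore separates regions that differ by a few kb in length.

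Every autosome carried at least 1 long mesa, but their cover was uneven. They occupied 13.7% of the autosomal span, measured on each chromosome from the first to the last listed position. Chromosome 16 had the highest cover, 25.3% of its span under 16 mesas, followed by chromosome 8 with 21.9% under 18. Chromosome 1 had the most mesas, 25, but 11.3% of its span under them. Chromosomes 4 and 13 stood at the other end with 1 mesa each, of 0.604 Mb and 0.695 Mb, or 0.316% and 0.722% of their spans. LADs did not follow this order: they took 69.5% of chromosome 4 and 61.3% of chromosome 13, and 63.2% of chromosome 16. Canyons covered 35.9% of chromosome 4, 60.5% of chromosome 13 and 23.7% of chromosome 16.

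**Figure D1:**
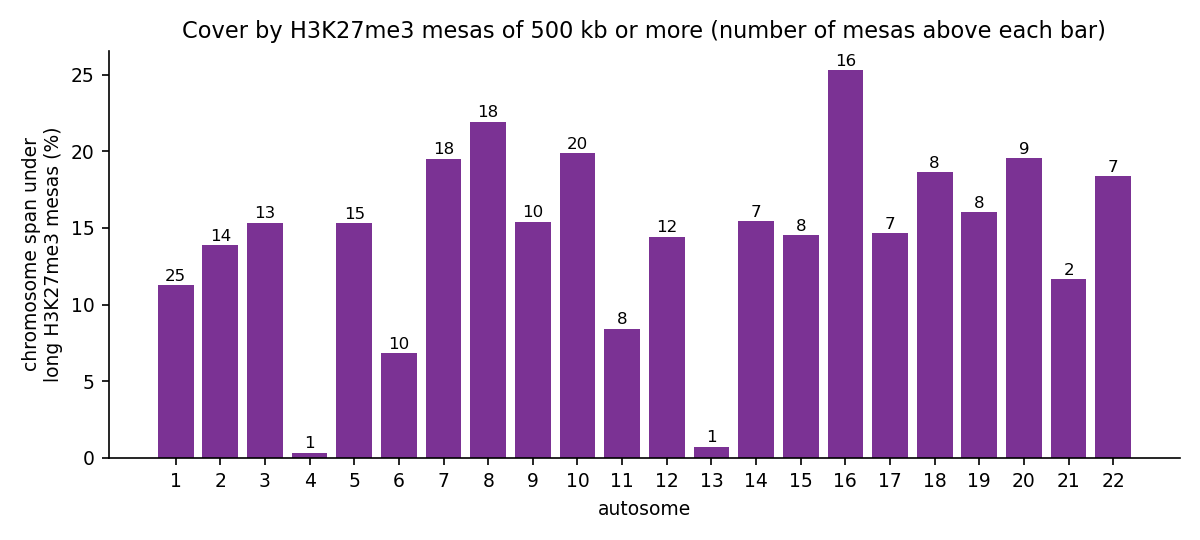
Share of each autosome's span, in percent, under H3K27me3 mesas of 500 kb or more, with the number of mesas above each bar. Chromosome 16 reaches 25.3%, whereas chromosomes 4 and 13 carry 1 mesa each and stay under 1%.

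The first question was how these gains lie on the lamina-associated domains of proliferating cells. All 237 touched a LAD, and 92.4% of their base pairs lay in LADs, against 61.2% of the autosomal span. Counted by region, 230 had at least 50% of their length in LADs; the share among all 1403 autosomal mesas was 84.6%. The mean share was 91.5 ± 14.7% (SD over 237 regions). Among autosomal mesas of 50 to 500 kb, the summed share was 89.7%, and 41 of those 469 touched no LAD. On 21 of the 22 autosomes the share of long-mesa base pairs in LADs was above the LAD share of the chromosome; the exception was chromosome 4, where the only long mesa lay 63.6% in LADs.

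Most long mesas belonged to 1 LAD. A total of 159 touched 1 LAD, 57 touched 2, 16 touched 3 and 5 touched 4, counting any shared base pair. The 78 that touched 2 or more were 32.9% of the members; among all autosomal mesas 6.13% did so. The part of length in this was not tested. The share touching 2 or more was 22.9% among the 105 mesas of 0.5 to 1 Mb, 31.5% among the 73 of 1 to 2 Mb, 50.0% among the 50 of 2 to 5 Mb and 66.7% among the 9 of 5 Mb and over. Of the mesas with 4 LADs, the longest were on chromosome 3 (600601 to 9228999, 8.63 Mb), chromosome 2 (3120401 to 8636699, 5.52 Mb) and chromosome 6 (159557301 to 163242599, 3.69 Mb). These regions still lay 94.3%, 87.9% and 87.5% in LADs, so the stretches between the LADs took up little of them.

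Few of the shorter members filled a LAD, whereas most of the longest did. Of the 237, 131 lay wholly inside 1 LAD, 55.3%, where 75.6% of all autosomal mesas did. These 131 occupied a median of 56.5% of their LAD (quartiles 36.0% and 72.2%), and 1 of them reached 90%. A further 28 touched 1 LAD and reached out of it, and 10 of these covered at least 90% of that LAD. Of the 78 that touched 2 or more LADs, 27 covered at least 90% of their main LAD, the one that held most of them. Counting every LAD a mesa touched, 47 mesas (19.8%) covered at least 90% of 1 or more LADs; 3.49% of all autosomal mesas did so, and 2 of the 49 mesas counted there were shorter than 500 kb. The count was 5 of 105 members of 0.5 to 1 Mb (4.76%), 12 of 73 of 1 to 2 Mb (16.4%), 22 of 50 of 2 to 5 Mb (44%) and 8 of 9 of 5 Mb and over (88.9%). A mesa that touches 3 or more LADs must cover those between its outer ones whole, and a longer mesa can fill a LAD by its length alone. The part of length in these counts was not tested. A close match in both directions, with at least 90% of the mesa in its main LAD and at least 90% of that LAD under the mesa, was found for 6 mesas.

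The closest matches were among the longest regions. The mesa on chromosome 2 at 122373601 to 127564499 (5.19 Mb) lay 98.8% in a LAD of 5280 kb and covered 97.1% of it. The mesa on chromosome 7 at 142856301 to 148199099 (5.34 Mb) lay 96.8% in a LAD of 5190 kb and covered 99.7% of it. The mesa on chromosome 9 at 27386901 to 32319999 (4.93 Mb) was contained in a LAD of 5200 kb and covered 94.9% of it. In these 3 cases the gain of H3K27me3 and the LAD were all but the same interval. The opposite case also occurred, with several long mesas touching 1 LAD. The LAD on chromosome 10 at 129030001 to 134070000 was touched by 6 of them, which together covered 85.4% of it. The LAD on chromosome 22 at 45890001 to 48610000 was touched by 4, covering 91.0%. Not all of these lay wholly inside. Members bridged the stretches on both sides of the chromosome 10 LAD and the stretch before the chromosome 22 LAD. In all, 61 mesas shared a LAD with another long mesa, in 27 LADs.

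**Figure D2:**
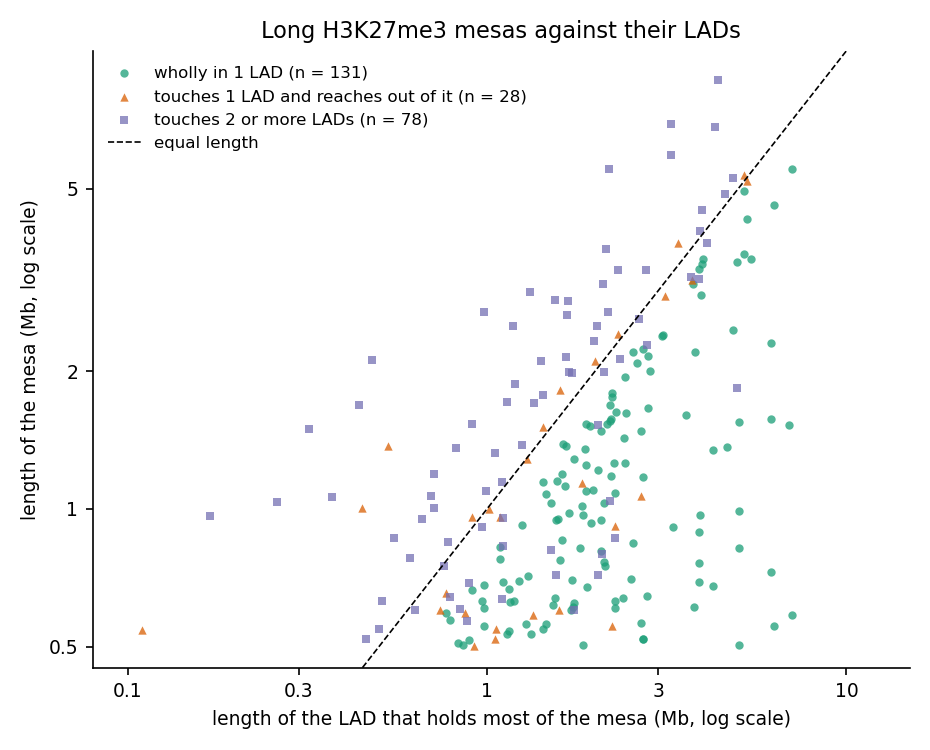
Length of each of the 237 long H3K27me3 mesas (vertical, Mb, log scale) against the length of the LAD that holds most of it (horizontal, Mb, log scale); the dashed line marks equal length. The 131 mesas wholly in 1 LAD lie below the line, with a median of 56.5% of the LAD covered, and 52 of the 78 that touch 2 or more LADs lie above it.

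Seen from the LADs, the long mesas used a small number of long ones. They touched 305 of 2001 autosomal LADs (15.2%), and these had a median length of 1430 kb, against 350 kb for the LADs they did not touch. The 500 kb minimum itself has a part in this, since the 131 members wholly in 1 LAD can lie only in LADs of at least that length. How large that part is was not tested. Of the touched LADs, 71 were at least 90% under long mesas, and 41 of these wholly so. The 71 had a median length of 1320 kb. The members covered 20.6% of all autosomal LAD base pairs and 66.0% of the base pairs of the LADs they touched. Of the 926 autosomal LADs of 500 kb or more, 265 were touched by a long mesa. The other 661, with a median length of 970 kb, can by that choice hold only H3K27me3 mesas under 500 kb. These covered 5.62% of their base pairs, and canyons covered 26.8%.

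Outside LADs lay 29.1 Mb of the members. Much of this, 21.95 Mb, was in 104 stretches between neighbouring LADs that a mesa bridged. The bridged stretches had a median of 170 kb and reached 780 kb, against a median of 300 kb over all 1979 stretches between neighbouring autosomal LADs. A stretch can be bridged only by a mesa longer than itself, and the part of this in the medians was not tested. A few members lay mostly outside LADs. The lowest share was 20.2%, on chromosome 11 at 46848901 to 47394199 (545 kb), where the mesa covered the whole of a LAD of 110 kb and extended beyond it. The next were on chromosome 6 at 24948001 to 25953999 (29.2% in LADs) and on chromosome 7 at 1897001 to 2930299 (34.2%). None of these 3 met a replicative H3K4me3 mesa, and the chromosome 7 region alone met Ras-induced mesas, over 41.2% of its length.

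The second question was what flanks a long mesa. Its edges usually lay inside a LAD and away from the LAD border. Of 474 edges, 431 were inside a LAD, and moving outward from them the LAD border was a median of 376 kb away (quartiles 182 kb and 842 kb). Within 10 kb of any LAD border lay 4 edges, and within 100 kb lay 79 (16.7%). No share over all autosomal mesas is given for these edge counts, so they cannot be called particular to the long mesas. Wholly in 1 LAD, with both edges inside it, lay 75.6% of all autosomal mesas and 55.3% of the members. The LAD list was made from lamin B1 windows, named as 100 kb wide in its header, so its borders are coarser than the 100 bp grid of the mesas.

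Canyons, the losses of H3K27me3, come from the same comparison as the mesas, so their absence from the members and their distances are description. The nearest canyon was a median of 695 kb from a mesa edge (quartiles 279 kb and 1515 kb), over 463 edges; on the other 11 no canyon followed before the end of the chromosome. A canyon lay within 100 kb on 1 or both sides of 28 mesas (11.8%), and on both sides of 3 mesas; the shares of all autosomal mesas were 14.0% and 1.28%. From 421 edges inside a LAD that had a canyon on their side, the canyon began beyond the border of that LAD at 280 (66.5%) and inside the same LAD at 141. Of the canyons nearest to the 463 edges, 230 were under 50 kb and 119 were 500 kb or more, with a median of 50.5 kb. The next H3K27me3 region outward was a mesa at 243 edges and a canyon at 227. Thus 71 long mesas stood between mesas, 63 between canyons, and 99 between a mesa and a canyon. No share over all autosomal mesas stands beside the counts of canyons by LAD border, by canyon length and by next region. None of these counts can therefore be called particular to the long mesas.

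The third question was how far the gains of H3K27me3 lay under broad gains of H3K4me3. Replicative H3K4me3 mesas, called from the same kind of senescent cells with another antibody, covered 35.6% of the long-mesa base pairs, against 13.1% of the autosomal span outside the long mesas. The mean share per region was 43.2 ± 35.3% (SD, 237 regions), and the median was 38.8%. At least 50% of the length was covered in 96 long mesas (40.5%); the share among all autosomal mesas was 39.8%, so by this count the long mesas stood close to the background. No replicative H3K4me3 mesa met 58 of them (24.5%; 52.6% of all autosomal mesas), and 29 were covered over their whole length (12.2%; 34.1% of all), so partial cover was the more usual state among the long mesas. Of all 1403 autosomal mesas, 697 were under 50 kb, and no autosomal replicative H3K4me3 mesa was under 502 kb. A short mesa is thus more easily covered whole or missed whole, and the part of length in these counts was not tested.

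Named here are the longest regions at each end, and ties at an end were common. The longest mesas covered completely by replicative H3K4me3 mesas were on chromosome 17 at 68949601 to 70318999 (1.37 Mb), chromosome 20 at 21522601 to 22885699 (1.36 Mb) and chromosome 6 at 39295801 to 40555399 (1.26 Mb). Ras-induced H3K4me3 mesas covered the regions on chromosomes 17 and 6 completely as well, and 75.4% of that on chromosome 20. The longest of the 58 mesas with no replicative H3K4me3 mesa were on chromosome 5 at 159992201 to 166908099 (6.92 Mb), chromosome 10 at 106261201 to 111525599 (5.26 Mb) and chromosome 3 at 95790601 to 99603499 (3.81 Mb). Ras-induced mesas covered 42.2% of the chromosome 5 region, 51.6% of the chromosome 10 region and 0% of the chromosome 3 region. Members without a replicative mesa were found in every length class. They were 30 of the 105 members of 0.5 to 1 Mb (28.6%) and 21 of the 73 of 1 to 2 Mb (28.8%). In the longer classes they were 5 of the 50 of 2 to 5 Mb (10.0%) and 2 of the 9 of 5 Mb and over (22.2%).

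Ras-induced H3K4me3 mesas, from cells driven into senescence by an oncogene and not by passage, covered more of the long H3K27me3 mesas. Their share was 54.4% of the base pairs, against 19.4% of the autosomal span outside the long mesas. The mean per region was 58.6 ± 35.2% (SD, 237 regions) and the median 62.9%. At least 50% of the length was covered in 142 long mesas (59.9%); among all autosomal mesas the share was 49.6%. No Ras-induced mesa was found over 33 (13.9%; 44.8% of all), and 49 were covered throughout (20.7%; 41.3% of all). The part of length in these counts was not tested either. The Ras-induced list is also the larger, with 24.2% of the autosomal span against 16.2% for the replicative list.

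The longest regions wholly under Ras-induced mesas were on chromosome 5 at 1963901 to 4267999 (2.30 Mb), chromosome 16 at 76643201 to 78437099 (1.79 Mb) and chromosome 8 at 20311101 to 21695199 (1.38 Mb). The replicative list covered 62.0%, 0% and 73.3% of them. The longest without any Ras-induced mesa were on chromosome 8 at 62370101 to 66415499 (4.05 Mb), chromosome 3 at 95790601 to 99603499 (3.81 Mb) and chromosome 12 at 16184001 to 18587299 (2.40 Mb). The replicative list covered 29.1%, 0% and 25.6% of these. The chromosome 3 region, 94.5% in LADs, was the longest of 15 mesas that met neither H3K4me3 list.

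Both H3K4me3 lists together divided the members into 3 groups of about equal size and a smaller one. By the 50% rule, 72 were covered by both lists (30.4%; 29.1% of all autosomal mesas) and 24 by the replicative list alone (10.1%; 10.8% of all). A further 70 were covered by the Ras-induced list alone (29.5%; 20.5% of all) and 71 by neither (30.0%; 39.6% of all). The median length was 0.946 Mb in the group covered by both, 0.636 Mb for the replicative list alone, 1.27 Mb for the Ras-induced list alone and 1.62 Mb for neither. Mesas that touched 2 or more LADs made up 18.1% of the group covered by both and 47.9% of the group covered by neither. The Ras-induced share was the higher in 151 mesas, the replicative share in 53, and they were equal in 33, of which 18 were wholly under both lists and 15 under neither. The extremes were also found crosswise: 6 mesas were wholly under the replicative list and free of the other, and 13 the reverse. For the counts of the higher share and of the extremes no share over all autosomal mesas is given. The Ras-induced list also covers more of the autosomal span, 24.2% against 16.2%.

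**Figure D3:**
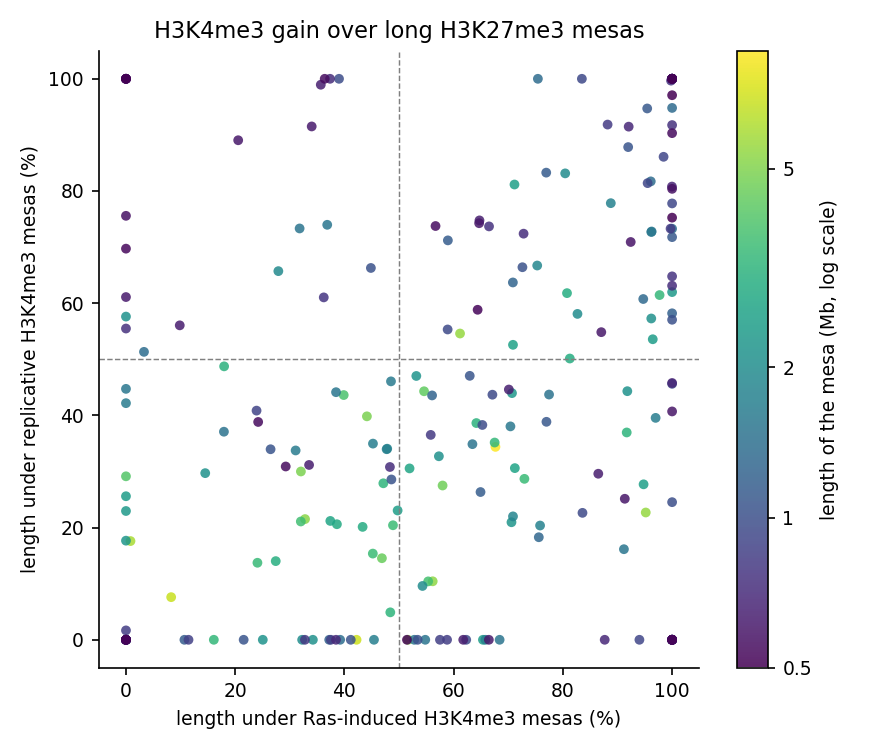
Share of the length of each of the 237 long H3K27me3 mesas, in percent, under Ras-induced (horizontal) and replicative (vertical) H3K4me3 mesas, coloured by the length of the mesa; dashed lines mark 50%, and points at the corners overlie each other. The points fill the whole square, with 72 above 50% on both axes and 71 below on both.

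The share under H3K4me3 mesas was lower in the longer members. Replicative H3K4me3 mesas covered 52.6% of the base pairs of mesas of 0.5 to 1 Mb, 40.0% at 1 to 2 Mb, 30.2% at 2 to 5 Mb and 19.0% at 5 Mb and over. Ras-induced mesas covered 63.6%, 60.4%, 48.9% and 46.1% in the same classes. The LAD share moved little, at 90.6%, 91.2%, 94.0% and 92.5%. H3K4me3 mesas themselves ran from 502 kb to 3.04 Mb in the replicative and from 501 kb to 4.47 Mb in the Ras-induced list on autosomes, so none of them can by itself cover the longest H3K27me3 mesas, and a region shorter than an H3K4me3 mesa can be covered whole. The part of the region lengths in these shares was not tested. Between the shorter classes the order was the other way, with 37.7% and 49.2% of base pairs under replicative mesas for H3K27me3 mesas under 50 kb and of 50 to 500 kb.

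**Figure D4:**
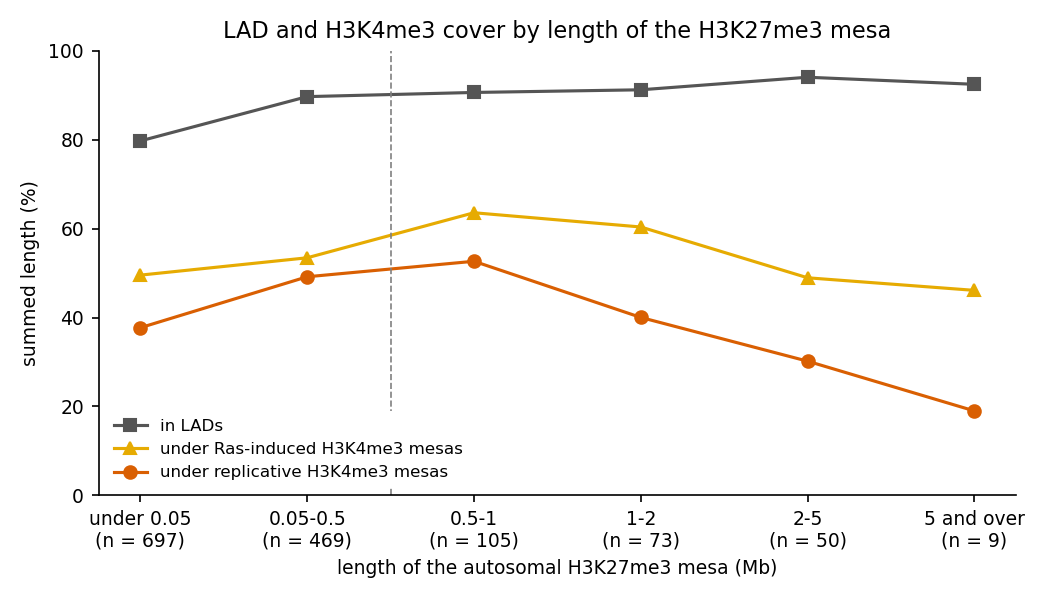
Share of the summed length of autosomal H3K27me3 mesas, in percent, in LADs and under Ras-induced and replicative H3K4me3 mesas, by length of the H3K27me3 mesa in Mb; the dashed line marks the 500 kb minimum and n is the number of mesas. Above the minimum the replicative share stands at 52.6% in the shortest class and 19.0% in the longest, while the LAD share stays between 90.6% and 94.0%.

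The H3K4me3 gains lay more on LADs, within the members and outside them. Replicative H3K4me3 mesas covered 37.8% of the members' base pairs inside LADs and 8.46% of those outside, and Ras-induced mesas 56.4% and 31.0%. Outside the members, replicative mesas covered 19.9% of LAD base pairs and 4.40% of the rest, and Ras-induced mesas 24.2% and 13.2%. Of the 104 bridged stretches between LADs, 83 had no replicative and 64 no Ras-induced H3K4me3 mesa, and 5 and 15 were covered throughout (to within 2 bp). Of the bridged base pairs, 9.48% lay under replicative and 28.3% under Ras-induced mesas, against 4.40% and 13.2% of the autosomal span outside LADs and members. The bridged stretches were also shorter than all stretches between LADs (medians 170 kb and 300 kb), and the part of this was not tested. Along the length of a member no end or centre stood out: over 10 equal bins from start to end, the mean share ran from 41.7% to 45.2% for the replicative list and from 55.8% to 62.8% for the Ras-induced list.

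The rest of the same LADs also carried much H3K4me3 gain. In the 305 touched LADs, replicative mesas covered 37.8% of the base pairs under a long H3K27me3 mesa and 33.2% of the remainder, and Ras-induced mesas 56.4% and 40.7%. Of that remainder, 16.6% lay under shorter H3K27me3 mesas and 6.97% under canyons. In the 661 LADs of 500 kb or more without a long mesa, the replicative list covered 19.8% and the Ras-induced list 21.6%. For both lists, then, the values within touched LADs were nearer to each other than to those of the LADs without a long mesa. They lay closer together for the replicative list (37.8% and 33.2%) than for the Ras-induced list (56.4% and 40.7%). An H3K4me3 mesa that reaches past a member's edge can lie in both parts of a touched LAD, so the values of these parts are not independent. Of the 305 touched LADs, 265 were of 500 kb or more, whereas all 661 others were. The touched LADs of 500 kb or more were longer, with a median of 1600 kb against 970 kb. The part of LAD length and of shared H3K4me3 mesas in this was not tested.

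Seen from the other side, 30.0% of autosomal replicative H3K4me3 mesa base pairs and 30.8% of Ras-induced ones lay in the long H3K27me3 mesas. Of 587 autosomal replicative H3K4me3 mesas, 232 touched a member, 184 lay at least 50% in members and 64 wholly so. Of 755 Ras-induced ones, 268 touched a member, 203 lay at least 50% in members and 70 wholly so. Most H3K4me3 mesas that met a member therefore also extended past its edge.

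The longest regions show how the lists combine. The 8.63 Mb mesa on chromosome 3 filled 3 of its 4 LADs, and replicative H3K4me3 mesas covered 34.4% of it and Ras-induced ones 67.7%, with 14.1% under both. The 6.92 Mb mesa on chromosome 5 at 159992201 to 166908099 filled all 3 of its LADs and had a canyon 18.2 kb beyond its right edge and another 136 kb beyond its left. It had no replicative H3K4me3 mesa. The 6.82 Mb mesa on chromosome 14 at 80626901 to 87441899 was 83.7% in 3 LADs, with 7.60% under replicative and 8.28% under Ras-induced mesas. The 5.94 Mb mesa on chromosome 9 at 102469501 to 108404999 was 87.2% in 3 LADs and had 17.6% under replicative and 0.826% under Ras-induced mesas. The 5.52 Mb mesa on chromosome 2 at 3120401 to 8636699 was the most covered of the 5, with 54.6% under replicative and 61.2% under Ras-induced mesas. Over these 5 regions the replicative share thus ran from 0% to 54.6% and the Ras-induced share from 0.826% to 67.7%.

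**Figure D5:**
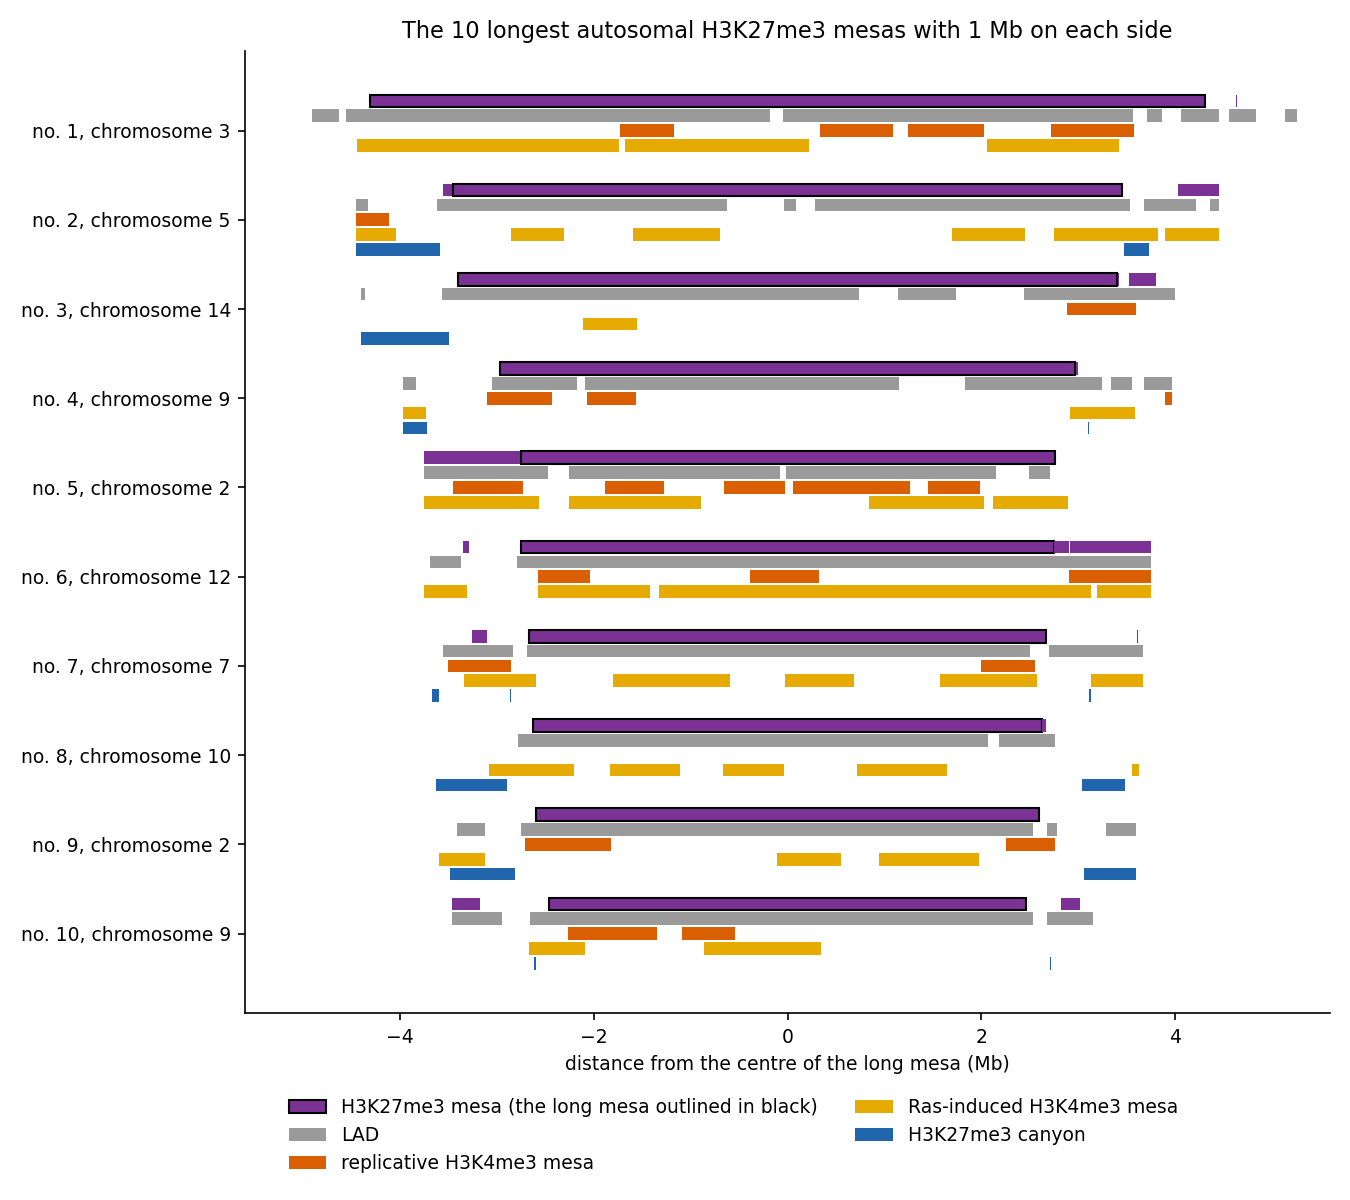
The 10 longest members with 1 Mb on each side (less at a chromosome end), from the top by length; bars show the regions of each list as distance in Mb from the centre of the long mesa, which is outlined in black. LADs run under most of each long mesa, H3K4me3 mesas cover it in pieces, and canyons lie outside, as close as 18.2 kb for the second region.

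Chromosomes carried the same pattern to different degrees. On the 19 autosomes with at least 7 members, the share of member base pairs in LADs ran from 80.6% on chromosome 6 to 96.3% on chromosome 2. The replicative H3K4me3 share ran from 17.2% on chromosome 22 to 55.7% on chromosome 19, and the Ras-induced share from 32.4% on chromosome 9 to 73.8% on chromosome 15. The Ras-induced share was above the replicative one on 20 of 22 autosomes; on chromosome 4 the Ras-induced share was 64.7% and the replicative 74.3%, and on chromosome 13 both were 100%, each from 1 mesa. Within 5 Mb of the first or last listed position of a chromosome lay the midpoints of 42 members (17.7%), where 7.89% of the autosomal span lies. No share over all autosomal mesas is given for this count, so it cannot be called particular to the long mesas. Those 42 had 69.3% of their base pairs under Ras-induced and 34.4% under replicative mesas, and the other members 51.8% and 35.8%.

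Chromosome X and the long canyons give further sets of the same minimum length for comparison. The autosomal mesas of 50 to 500 kb are gains from the same list and chromosomes. They lay 89.7% in LADs, 49.2% under replicative and 53.4% under Ras-induced H3K4me3 mesas, so high shares are not particular to the long mesas. The 237 autosomal members lay 92.4% in LADs, against 93.7% for the 14 H3K27me3 mesas of 500 kb or more on X, and 39.9% for the 448 autosomal canyons of that length. Their replicative H3K4me3 share was 35.6%, against 38.4% for the long mesas on X and 6.31% for the long canyons. Their Ras-induced share was 54.4%, against 31.4% on X and 14.7% for the long canyons. These shares are of summed base pairs, and on X a few very long mesas weigh heavily. The longest there, of 27.6, 15.2 and 9.89 Mb, had 24.5%, 12.8% and 43.8% under Ras-induced mesas and 22.4%, 19.7% and 52.7% under replicative ones. Over the 14 mesas on X the Ras-induced share ran from 0% to 100% and the replicative share from 19.7% to 100%. The members' median length of 1.10 Mb compares with 2.52 Mb on X and 1.31 Mb for the canyons. These sets were not tested against each other.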

How the data were processed

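The submitters' processing notes name Bowtie 0.12.5 and build hg18. What the authors deposited are 5 lists of regions with start and end in base pairs; the score column of the deposited LAD list is 0 throughout. Sources used here do not say how regions were called, at which threshold, how H3 libraries entered or whether replicates were pooled. Starts fall on multiples of 100 bp for H3K27me3, 1000 bp for H3K4me3 and 10 kb for LADs.

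Overlaps were computed in Python 3.11.15 with numpy 2.4.6 and pandas 2.3.3, counting any shared base pair, and checked on simulated lists. Length is end minus start, and printed starts are 1-based. A LAD counts as filled at 90% and a mesa as covered at 50%. Shares are of summed base pairs unless given per region. Depth is unknown, no value belongs to a replicate, and the background share beside a count is over all 1403 autosomal mesas. Named regions are the 5 longest, the 3 on each side of 500 kb, and the 3 at the extremes of LAD share, LAD number, LAD match and each H3K4me3 share; other regions were chosen after their values were seen. Members, lists and settings were chosen with earlier results of these data known. No genome of build hg18 was used, so genes and sequences are not analysed here.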

Additional observations from a re-analysis of the deposited data

How the results depend on the processing

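The 10 summary values were recomputed under other settings, giving 68 values, of which 51 stayed close to the main one (counts within 1.5 times, the median length within 1 SD over regions, percentages within a 95% Wilson interval for 237 regions) and 17 did not. That interval is only a yardstick, since shares of base pairs are not counts of regions and neighbouring mesas are not independent. A minimum of 1000 kb left 132 mesas, of which 40.9% touched 2 or more LADs, 31.8% filled a LAD and 28.8% were at least 50% under replicative H3K4me3 mesas. Joining H3K27me3 mesas at most 50 kb apart gave 29.3% that filled a LAD, and at most 5 kb apart, chosen after seeing the data, 26.7%. Joining LADs at most 100 kb apart, also chosen after seeing the data, gave 26.2% touching 2 or more LADs and 15.2% filling 1; at 50 kb nothing moved, since no gap between LADs is under 60 kb. Averaging over regions gave 43.2% under replicative mesas in place of 35.6%. With a LAD counted as filled at 80% the share was 30.4%, and at 100% it was 12.2%. A canyon was within 50 kb of 4.64% of mesas and within 250 kb of 38.4%. At a cover of 75% the shares were 22.4% for the replicative and 38.4% for the Ras-induced list, and at 25% they were 63.7% and 79.7%. A minimum of 400 kb and the addition of chromosome X left every value computed close to the main one. No paired analysis was possible because the lists hold no values per replicate, and for the same reason no replicate could be left out. Depth is unknown, so what it limits cannot be stated.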

Other observations

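Many long mesas, like autosomal mesas of any length, are parts of longer runs of gain broken by very short interruptions. On 1 or both sides of 113 of the 237 members, the next H3K27me3 mesa began within 5 kb, and for 80 within 1 kb, with the smallest interruption at 101 bp. The neighbours across these 135 short interruptions had a median length of 81.4 kb, and 20 of the 135 were themselves members. Over all autosomal mesas, 410 of 1381 gaps between neighbours (29.7%) were 5 kb or less, while the median gap was 500.4 kb. Counted by edge, the members had a mesa within 5 kb at 135 of 474 edges, so they stood close to that share. Joining mesas at most 5 kb apart reduced 1403 mesas to 993, left 232 of at least 500 kb and brought their total to 410.2 Mb. What lies in these interruptions is not analysed here.

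Most members that met an H3K4me3 list met it once. Exactly 1 replicative H3K4me3 mesa overlapped 124 members, and 55 met 2 or more, up to 5. For the Ras-induced list 138 met 1 and 66 met 2 or more, up to 4. The shortest autosomal H3K4me3 mesa was 502 kb in the replicative and 501 kb in the Ras-induced list, so most members have room for few of them. These counts stand without a share over all autosomal mesas, and the part of the lengths in them was not tested. The 131 members wholly in 1 LAD had 44.4% of their base pairs under replicative and 63.5% under Ras-induced mesas, against 27.6% and 45.3% for the 78 members that touched 2 or more LADs, which were also longer (medians 0.979 Mb and 1.69 Mb); the part of length in this was not tested.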
